A study of Mus musculus with 2 samples.

Results

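Malat1, Neat1, Kcnq1ot1, Tug1 and Miat are long RNAs that are classed as noncoding and are found in the nucleus. They were chosen by name, 5 genes of 30723 in the deposited tables, after Malat1 had been seen to stand far above its control value, so their differences between the libraries are given as a description. All 5 were found, as 16 of 59055 transcripts, every one with an estimate marked OK in both libraries. The study compared 2 libraries of mouse mandibular prominences, the facial swellings from which the lower jaw and the front of the tongue grow. The Kif3a mutant library was made from embryos labelled Kif3a f/f ; Wnt1-Cre, in which a Cre recombinase driven by the Wnt1 promoter deletes the floxed gene of a ciliary kinesin in neural crest cells and their descendants, and leaves it intact in epithelium, muscle precursors, vessels and blood. The control library carries no further genotype in the labels. For each library, tissue of 10 embryos of mixed CD1 background at stage E11.5 was pooled, and the RNA sequenced is given as total RNA. The naming of the mutant table gives day 11, however, and only that of the control table gives CD1. Each table also names its own sequencing run. Stage, run, any difference of background and genotype cannot be told apart, and with 1 library per group no test between genotypes exists.

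Many nuclear noncoding RNAs act where they are made or gather in bodies of the nucleus. Malat1 is among the most abundant RNAs of most mammalian cells and sits in nuclear speckles, the stores of splicing factors. Neat1 is the scaffold of paraspeckles. Kcnq1ot1 is made from the paternal chromosome only, starts inside Kcnq1 and runs antisense to it, and silences neighbouring genes of its imprinted domain in cis. Tug1 is a spliced RNA that shares its start region with the divergent gene Morc2a, and Miat, also called Gomafu, is a spliced nuclear RNA best known from neurons and the retina.

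The 3′ end of Malat1 is shown because it sets this RNA apart from messenger RNAs. It is not polyadenylated. A pair of U-rich stretches folds with an A-rich tract into a triple helix that protects the end, and a tRNA-like RNA, mascRNA, is cut off downstream by the tRNA processing enzymes RNase P and RNase Z. The stretch below is bases 6602 to 6758 of the 6983-base Malat1 transcript of GENCODE M21, at chr19:5795915-5796071 of GRCm38, minus strand. Capitals mark TTTTCTTTT, TTTTGCTTT, the run of 12 A, and TTCAAGTC, a match to the T arm of tRNAs. A further 225 bases of annotated transcript follow it.
Malat1 3′ region: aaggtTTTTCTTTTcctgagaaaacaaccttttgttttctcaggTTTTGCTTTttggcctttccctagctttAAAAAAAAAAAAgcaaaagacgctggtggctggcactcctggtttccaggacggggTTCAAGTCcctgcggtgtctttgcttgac

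Miat carries the other sequence of note, copies of TACTAAC, the branch point sequence that the splicing factor SF1 recognises. The GENCODE M21 transcript of Miat with 8758 bases holds 6 copies on its own strand, or 0.685 per kilobase. Of 7040 GENCODE M21 transcripts with at least 5000 bases, 15.7% hold 1 or more copies and 3 transcripts hold 6 or more, and 2 of those 3 are Miat transcripts. Among the other members, Malat1 and the Tug1 transcript of 4720 bases hold 0, the long form of Neat1 holds 1, and Kcnq1ot1 holds 4 in 93092 bases. The stretch shown is bases 5176 to 5236 of that Miat transcript, at chr5:112216752-112216812 of GRCm38, minus strand, with 3 of the copies in capitals.
Miat repeats: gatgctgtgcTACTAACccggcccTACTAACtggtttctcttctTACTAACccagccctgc

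Promoters, 300 bases that end shortly after the start, were available from RefSeq (GRCm38.p6) for 4 of the 5 genes, and those of Malat1 and Kcnq1ot1, the pair with the highest ratios, are shown. Searched on either strand, CCAAT, the box bound by NF-Y, occurred 3 times in the Kcnq1ot1 promoter and 0 times in those of Malat1, Tug1 and Miat. The share with 1 or more copies was 37.4% of 32851 promoters, and 3.37% held 3 or more. TGACG, the core of the cyclic AMP response element, occurred 3 times in the Malat1 promoter, 1 time in that of Kcnq1ot1 and 0 times in the others, against 20.8% of all promoters with 1 or more and 1.03% with 3 or more. TATAAA was found in none of the 4, and GGGCGG, the GC box, 1 time each in Tug1 and Miat, against 13.6% and 35.7% of all promoters. These motifs were picked for description and their matches do not overlap. In capitals below are TGACG or its reverse complement CGTCA in Malat1 (chr19:5802623-5802922, minus strand) and CCAAT in Kcnq1ot1 (chr7:143296498-143296797, minus strand).
Malat1 promoter: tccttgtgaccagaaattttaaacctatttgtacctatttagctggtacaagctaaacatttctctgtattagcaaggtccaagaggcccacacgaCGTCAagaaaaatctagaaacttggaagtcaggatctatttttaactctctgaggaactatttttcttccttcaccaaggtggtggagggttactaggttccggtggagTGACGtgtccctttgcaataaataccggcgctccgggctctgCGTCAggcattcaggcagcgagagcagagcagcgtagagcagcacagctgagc
Kcnq1ot1 promoter: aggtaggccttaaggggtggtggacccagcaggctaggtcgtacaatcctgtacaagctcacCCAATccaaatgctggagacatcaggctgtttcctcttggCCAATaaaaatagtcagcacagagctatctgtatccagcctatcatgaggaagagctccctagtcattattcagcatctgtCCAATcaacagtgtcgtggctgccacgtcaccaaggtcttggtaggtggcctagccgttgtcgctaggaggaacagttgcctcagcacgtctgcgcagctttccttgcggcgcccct

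Expression is given as FPKM, the number of fragments scaled by transcript length and by library size, as the authors estimated it and summed here over the transcripts of a gene, so levels of different genes are compared per length. The transcripts used held about 24500000 fragments in the mutant and 24700000 in the control, an approximation from the deposited coverage. These totals need not equal the library sizes by which FPKM was scaled, so ratios of fragments and of FPKM can differ. Tug1, for example, had about 5671 fragments in the mutant and 5581 in the control but an FPKM ratio of 0.931. Ranges in parentheses after a ratio are 95% exact binomial (Clopper-Pearson) intervals on the approximate fragments, carried to the FPKM ratio. They cover counting error only, leaving out how embryos and preparations vary. Log2 ratios are log2((mutant FPKM + 1) / (control FPKM + 1)) unless stated otherwise, and the median of the 12259 genes with a mean of at least 1 FPKM, called measured below, was -0.13. This median was 0.40 when FPKM was scaled to the same sum in both libraries, and -0.01 with deposited coverage in place of FPKM. Lists are therefore described relative to the median gene. Kif3a stood at 5.39 FPKM in the mutant and 11.46 in the control.

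In whole tissue, fewer cells of a type and less RNA per cell cannot be told apart, and markers of several cell types differed between the pools. Summed over 10 erythroid markers the mutant held 7318 FPKM and the control 25905, with all 10 below the median gene. In the other lists the measured markers below the median gene were 7 of 7 for muscle, 8 of 9 for endothelium, 5 of 6 for macrophages, 3 of 10 for epithelium, 2 of 4 for neurons and 4 of 9 for mesenchyme. The sums were 13.5 and 45.0 for 8 skeletal muscle markers, 57.5 and 87.2 for 9 endothelial ones, 12.1 and 20.5 for 8 macrophage ones, 200.7 and 181.7 for 10 epithelial ones, 19.9 and 19.3 for 8 neuronal ones and 730 and 802 for 9 of mandibular mesenchyme, all 9 of them measured. The part of this makeup in the values of the noncoding RNAs was not tested.

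The 5 RNAs differed widely in level, and 3 of them stood well above the control. In the mutant library Malat1 was the highest per length, followed by Tug1, Miat, Neat1 and Kcnq1ot1. In the control library Tug1 was the highest, followed by Malat1, Neat1, Miat and Kcnq1ot1. Among neighbours in these orders, the counting intervals of Miat and Neat1 and those of Neat1 and Kcnq1ot1 overlapped in the mutant. By the ratio of FPKM, Malat1, Kcnq1ot1 and Miat, 3 of the 5, exceeded the control by 2-fold or more, 0 were at least 2-fold lower, and Neat1 and Tug1 lay close to the control. Of 12458 genes with at least 100 fragments over both libraries, 1.32% were at least 2-fold higher by this ratio and 2.48% at least 2-fold lower; as the members were chosen from this contrast, their count is given without further reading.

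**Figure D1:**
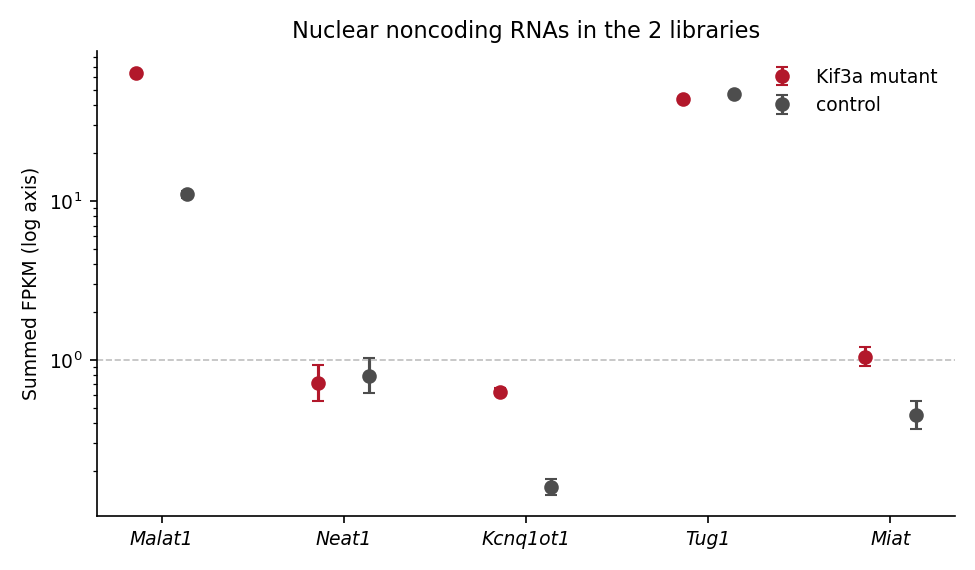
Summed FPKM (log axis) of each RNA, Kif3a mutant in red left of control in grey, 1 library each, with 95% exact Poisson counting intervals and a dashed line at 1 FPKM. Malat1, Kcnq1ot1 and Miat stood higher in the mutant, at 63.7, 0.629 and 1.05 FPKM against 10.98, 0.159 and 0.448, while the pairs of Neat1 and Tug1 points lie close together.

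Only Malat1 and Tug1 had a mean of at least 1 FPKM over both libraries. Of the genes that did, 0.767% had a log2 ratio of at least 1 and 1.36% of at most -1, and Malat1 was among the higher ones. The other 3 members lay under that bar, where adding 1 to each value shrinks the log2 ratio, yet all 5 had more than 100 fragments. Kcnq1ot1 shows the difference best: its 1438 fragments in the mutant and 320 in the control spread over 83437 bases, so that a low FPKM rests on many fragments.

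Malat1 lies on chromosome 19 from 5795690 to 5802671 on the minus strand, as 1 unspliced transcript of 6982 bases. It stood at 63.7 FPKM in the mutant and 10.98 FPKM in the control. The FPKM ratio was 5.81 (5.53 to 6.10) on about 12393 and 1917 fragments, and the log2 ratio was 2.43. Its rank by FPKM among all genes was 1037 in the mutant and 6353 in the control. No other table entry overlaps it, so its value does not depend on how fragments were divided between transcripts. Any selection of polyadenylated RNA in making the libraries is not described here, and its part in the value of Malat1 was not tested.

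Among genes with a most abundant transcript over 300 bases and a mean of at least 1 FPKM, 12139 in number, Malat1 had the highest log2 ratio with the pseudocount. By the plain FPKM ratio, 10 genes with at least 100 fragments and such transcripts stood above it, 6 of them with a mean of at least 1 FPKM, at no more than 5.27 FPKM in the mutant and 0.864 in the control. With the pseudocount, the 25 genes above it had transcripts of 151 bases or less. With a mean of at least 5 FPKM and leaving out clone, predicted, small RNA and mitochondrial names, 8103 genes were ranked, and over these 2 libraries the 4 nearest to Malat1 in log2 ratio still lay 1.01 to 1.13 away. They were Nfat5 (1.42), an osmotic stress factor, Xist (1.38), the RNA that coats the inactive X chromosome, Hipk2 (1.37), a nuclear kinase, and the histone gene Hist1h4i (1.30).

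The deposited entry of Neat1 covers 5842302 to 5845478, the short form of 3177 bases, and lies 39.6 kilobases from Malat1 on the same strand. It stood at 0.716 FPKM in the mutant and 0.796 in the control. The ratio was 0.899 (0.626 to 1.30) on about 62 and 64 fragments, an interval that reaches from lower to higher, so no difference was detectable at this depth. Its log2 ratio was -0.07 and changed sign with the scaling, to 0.21 in shares of the summed FPKM. The long form, annotated by GENCODE from 5824708 to 5845478 and required for paraspeckles, was not analysed here. It contains the whole interval of the deposited entry, so fragments of either form can count towards the values above. Per length, Malat1 exceeded Neat1 by 89.0 times in the mutant and by 13.8 times in the control. The 4 genes nearest to Neat1 in log2 ratio, each within 0.001, were Rapgef1, Kremen1, Sptlc2 and Wbp4, at levels of 10.1 to 25.8 FPKM in the mutant and 10.7 to 27.1 in the control; many genes share so small a difference.

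The protein-coding genes around this locus had ratios near or below 1. Of 17 listed genes 14 had a mean of at least 1 FPKM, with log2 ratios of -0.54 to 0.02 and a median of -0.25, and 5 lay above and 9 below the median gene. Frmd8, next to Neat1, stood at 19.1 FPKM in the mutant and 20.7 in the control. Ltbp3 had -0.38, Tigd3 -0.24, Dpf2, the most abundant, -0.19, Cdc42ep2 -0.35, Pola2 -0.08, Fam89b -0.25, Ehbp1l1 -0.49, Map3k11 -0.09, Pcnxl3 0.00, Sipa1 -0.42 and Rela, the NF-kappaB subunit, -0.54. Ssh3 (0.02), on the list by mistake, lies further off at 4261669.

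Kcnq1ot1 was higher in the mutant, and 7 of the 8 measured genes of its domain lay below the median gene. Kcnq1ot1 lies on chromosome 7 from 143213111 to 143296547 on the minus strand, 1 unspliced transcript in the deposited tables; GENCODE M21 extends it to 93092 bases. It stood at 0.629 FPKM in the mutant and 0.159 in the control, a ratio of 3.96 (3.50 to 4.48). The log2 ratio was 0.49 with the pseudocount and 1.99 without it. Whether the libraries kept strand is not given in the sources used here, so reads from introns of Kcnq1, which spans 143107254 to 143427042, cannot be told apart from Kcnq1ot1. Kcnq1 itself stood at 0.225 FPKM in the mutant and 0.483 in the control on about 6 and 23 fragments, a ratio of 0.465 (0.157 to 1.19).

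Of the 12 listed genes of the domain and its flanks, 8 had a mean of at least 1 FPKM. All 8 had negative log2 ratios, 7 were under the median gene, 1 was at least 2-fold lower and 0 were at least 2-fold higher, and their median was -0.37 against -0.13 for all genes. Cdkn1c, the growth-restraining cyclin-dependent kinase inhibitor p57 and a known target of Kcnq1ot1 silencing, was the most abundant, at 226 FPKM in the mutant and 377 in the control, a ratio of 0.599 (0.584 to 0.614). Phlda2, an imprinted regulator of placental growth, stood at 1.22 and 1.95, a ratio of 0.626 (0.345 to 1.05). On the other side, Tspan32 stood at 0.596 and 2.49, a ratio of 0.239 (0.149 to 0.385), the tetraspanin gene Cd81 at 71.4 and 90.0, and Tssc4 at 25.96 and 32.95. Further out, Nap1l4, a nucleosome assembly factor, stood at 109 and 122, Osbpl5 at 5.61 and 7.79, and Dhcr7, the last enzyme of cholesterol synthesis, at 16.0 and 16.3. Of the 4 under the filter, Ascl2, a trophoblast factor, stood at 0.0650 and 0.184, and the channel gene Trpm5 at 0.0183 and 0.139, on 10 or fewer fragments in each. Slc22a18 had the opposite sign at 0.318 and 0.139 on about 14 and 5 fragments, with a ratio interval of 0.861 to 8.97. From 500 to 14000 bases, genes with shorter transcripts had lower median ratios. With the length trend removed, 6 of the 8 lay below the gene of typical ratio for their length, with a median of -0.10, and Cdkn1c had -0.53. By this measure the neighbours of Malat1 and Neat1 also had a median of -0.10, with 11 of 14 below 0. Those of Tug1 and Miat, described below, had -0.07, with 7 of 10 below 0.

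**Figure D2:**
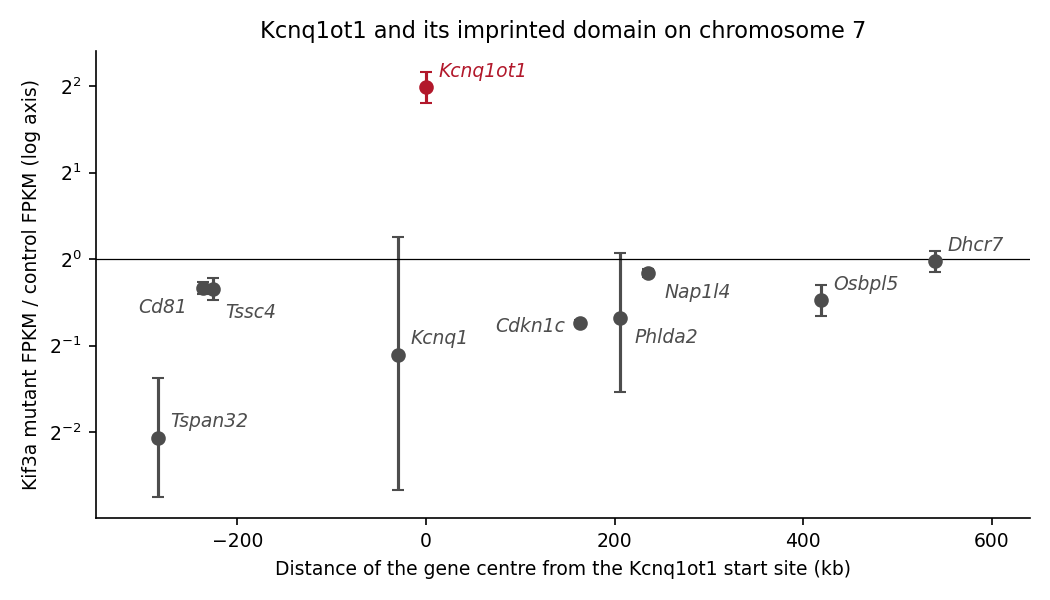
Ratio of Kif3a mutant to control FPKM (log axis) against distance in kilobases from the Kcnq1ot1 start site, for Kcnq1ot1 (red) and listed genes of its domain with at least 20 fragments (grey), 1 library per group, with 95% counting intervals. Kcnq1ot1 stands at 3.96 and the plotted genes on either side lie below 1, from 0.239 for Tspan32 to 0.982 for Dhcr7. The intervals of Kcnq1, Phlda2 and Dhcr7 reach above 1. Slc22a18 (2.29), Ascl2 (0.354) and Trpm5 (0.132) have fewer fragments and are not plotted.

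Tug1 lay close to its control value and was, in the control, the most abundant of the group. It lies on chromosome 11 from 3639794 to 3648808 on the minus strand and stood at 44.1 FPKM in the mutant and 47.3 in the control. The ratio was 0.931 (0.897 to 0.967) and the log2 ratio -0.10, just above the median gene, with a sign that changed under other scalings (0.03 with the median gene set to 0). Its transcripts did not all lie on the same side. The one of 4716 bases, which carries most of the level, stood at 28.3 FPKM in the mutant and 32.1 in the control, a ratio of 0.882 (0.843 to 0.923), and the one of 5115 bases at 8.65 and 9.53. That of 3233 bases was higher in the mutant, at 7.14 against 5.71 FPKM in the control, a ratio of 1.25 (1.11 to 1.41), so that its share of Tug1 was 16.2% in the mutant and 12.1% in the control. A clone of 1405 bases within Tug1, AK033381, also stood higher, at 1.04 against 0.383 FPKM. All of these overlap, and the division of fragments among them is an estimate of the authors' software.

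Miat lies on chromosome 5 from 112213228 to 112228948 on the minus strand, with 10 transcripts. Their sum stood at 1.05 FPKM in the mutant and 0.448 in the control, a ratio of 2.34 (1.83 to 2.98) from some 215 fragments in the mutant and 101 in the control. Its transcript of 8716 bases, one of the forms long enough to hold the TACTAAC repeats, carried 82.1% of the sum in the mutant and 98.9% in the control, and stood at 0.861 and 0.443 FPKM, a ratio of 1.94 (1.53 to 2.51). Transcripts of 1563 and 1619 bases were listed at 0.103 and 0.0827 FPKM in the mutant and at 0 in the control, on about 8 fragments together. The one of 8760 bases stood at 0.00221 and 0.00499, and the other 6 short ones were listed at or near 0 in both libraries. The log2 ratio was 0.50, or 0.37 with the most abundant transcript alone.

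**Figure D3:**
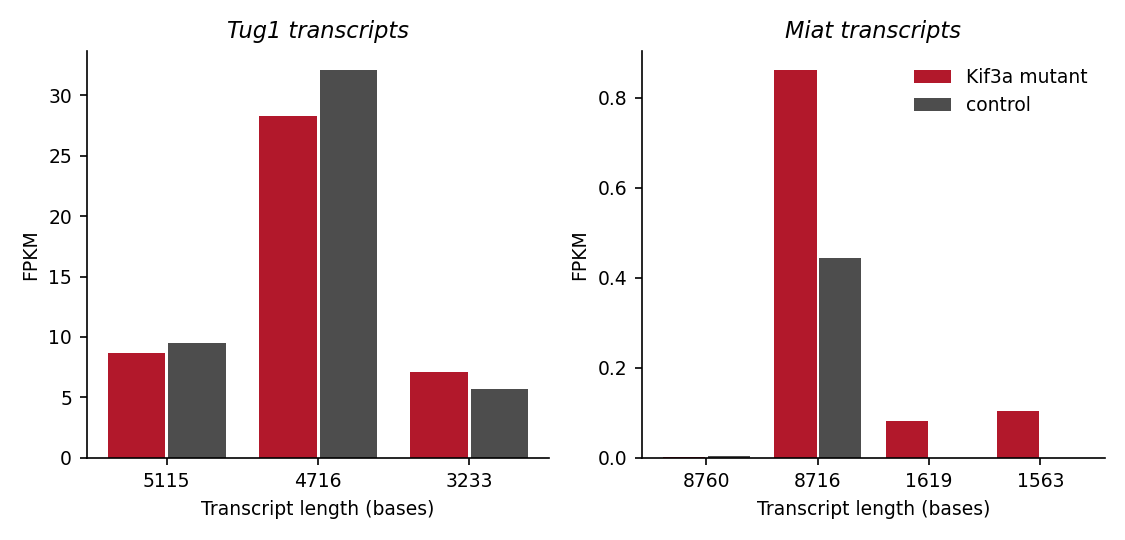
FPKM of each transcript of Tug1 (left) and of the Miat transcripts above 0.001 FPKM (right) by transcript length in bases, Kif3a mutant in red left of control in grey, 1 library each. Of the Tug1 transcripts the one of 3233 bases is higher in the mutant (7.14 against 5.71), and of Miat the one of 8716 bases stands at 0.861 against 0.443.

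Of 15 listed genes around Tug1 and Miat, 10 had a mean of at least 1 FPKM, with a median log2 ratio of -0.22, 3 above and 7 below the median gene and 0 past a log2 ratio of 1 in either direction with the pseudocount. Morc2a, the divergent partner of Tug1 and the most abundant of them, stood at 18.6 FPKM in the mutant and 18.3 in the control. The selenoprotein gene Selm was lowest at 6.73 and 13.5, an FPKM ratio of 0.497 (0.409 to 0.606) that lies past 2-fold without the pseudocount, and Srrd (-0.47) and the smooth muscle gene Smtn (-0.31) followed.

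Transcript length moved with these values. In genes with at least 100 fragments the running median of the log2 FPKM ratio was -0.31 at 1000 bases, 0.00 at 5000 and 0.44 at 12000. Within 1.5 times the length of Malat1, 2307 other genes had a median ratio of 1.06, and 1.78% of them were at least 2-fold higher. Malat1 thus stood 5.48 times over the median of its length class, Miat 2.06 times over that of 1321 genes, Neat1 at 0.986 and Tug1 at 0.962 of theirs. Among other transcripts of over 5000 to 8000 bases with at least 100 fragments, 23.1% of 39 unspliced and 9.69% of 2674 spliced ones were at least 2-fold higher. Their median log2 FPKM ratios were 0.15 and 0.07. No other gene reached within 1.5 times the length of Kcnq1ot1. The 76 genes with a most abundant transcript over 12000 bases, up to 19827, had a median ratio of 1.64 (25th to 75th percentile 1.35 to 1.86), 21.1% were at least 2-fold higher, and 0 reached the ratio of Kcnq1ot1, the nearest being the large cadherin gene Fat2 at 3.18 (2.42 to 4.22). Counted by single transcripts, 15 of 118 over 12000 bases did reach it, and so did all 3 over 20000 bases, the nearest in length to Kcnq1ot1. These were forms of the cytoskeletal linker genes Macf1, at 0.728 FPKM in the mutant and 0.0896 in the control (ratio 8.12), Dst, at 1.65 and 0.261 (ratio 6.30), and Syne2, at 6.59 and 1.504 (ratio 4.38). Where a gene has several forms, such values rest on the division of fragments among them. The part of length in the values of Kcnq1ot1 and Miat was not tested further.

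**Figure D4:**
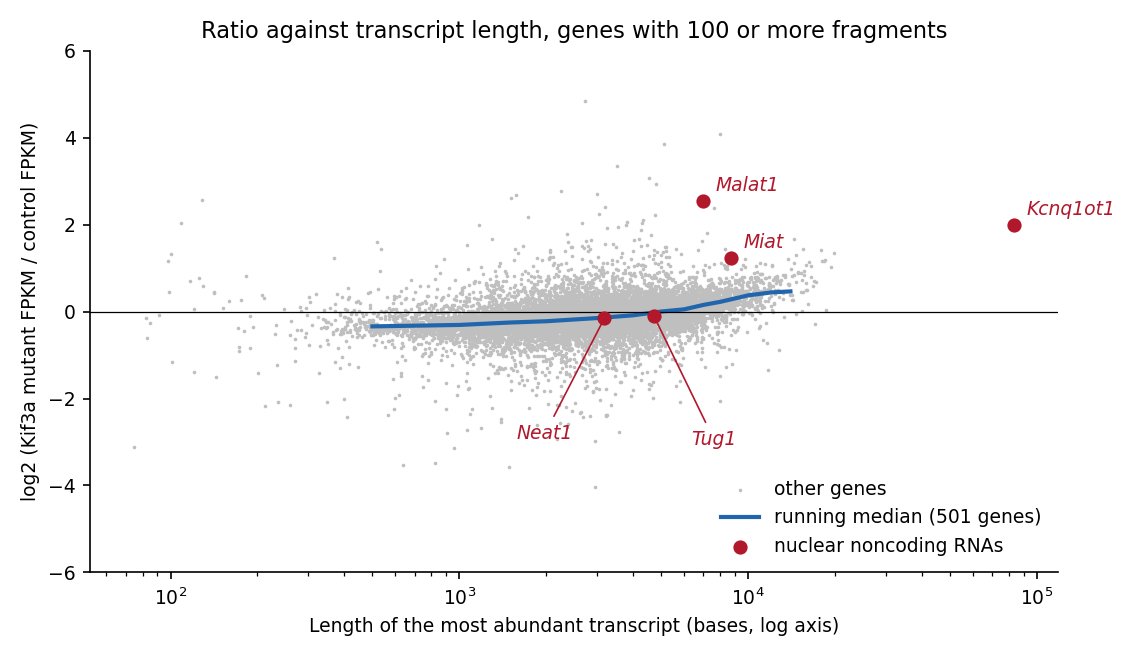
log2 ratio of Kif3a mutant to control FPKM against length of the most abundant transcript (bases, log axis) for genes with at least 100 fragments (grey; 3 lie beyond the axis), with the running median over genes of like length (blue) and the nuclear noncoding RNAs (red). Malat1 and Miat stand above the blue line, Neat1 and Tug1 close to it, and Kcnq1ot1 lies beyond the range of other lengths.

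Genes for proteins that work with these RNAs lay within 2-fold and mostly above the median gene. Of 36 listed paraspeckle proteins 34 had a mean of at least 1 FPKM, 27 above and 7 below the median gene, with a median log2 ratio of -0.02 and 0 past 2-fold. With the length trend removed, 29 lay above and 5 below 0, with a median of 0.12. The cleavage factor gene Cpsf6 (0.28) and its partner Nudt21 (-0.24) differed in sign, but had 0.46 and 0.03 with the length trend removed. The core paraspeckle gene Pspc1 stood at 28.5 FPKM in the mutant and 34.2 in the control, and the most abundant, Hnrnpk, at 618 and 663. Of 28 nuclear speckle proteins 20 lay above and 8 below the median gene, with a median of -0.02 and 0 past 2-fold, and with the length trend removed 21 lay above and 7 below 0. The speckle scaffold genes Srrm2, at 103 FPKM in the mutant and 63.3 in the control, and Son, at 91.0 and 67.2, were the highest, with transcripts of 8600 and 8451 bases, and with the length trend removed they had log2 ratios of 0.44 and 0.20. Srsf9 was lowest at 96.7 and 135, and Srsf3, the most abundant, stood at 303 and 344.

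Genes for the trimming and decay of nuclear RNAs also lay within 2-fold. Of 24 listed 23 were measured, 14 above and 9 below the median gene, with a median of -0.10 and 0 past 2-fold. The RNase P subunit genes Pop7 (-0.46), Pop4 (-0.39) and Pop5 (-0.36) were lowest, all with short transcripts. With the length trend removed they had -0.15, -0.13 and -0.08. Subunit genes of this enzyme lay at both ends of the list, as Pop1 (0.28) was the highest and had 0.41 with the length trend removed. Elac2, which encodes RNase Z, stood at 11.8 FPKM in the mutant and 13.7 in the control, and the nuclear poly(A) binding protein gene Pabpn1, the most abundant, at 166 and 174. Of the Polycomb and G9a complexes, which Kcnq1ot1 recruits in placenta, 24 of 26 genes were measured, 14 above and 10 below the median gene, with a median of -0.07 and 0 past 2-fold. Rbbp4 stood at 122 FPKM in the mutant and 163 in the control, Cbx8 had -0.37 and Pcgf1 -0.26, and the most abundant, Rbbp7, stood at 136 and 152.

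Other long noncoding RNAs lay more often above than below the median gene. Of 54 listed, 43 were found, 13 genes of this and the other lists under an older symbol, and 32 were measured. These had a median log2 ratio of 0.03, 21 above and 11 below the median gene, with 0 at least 2-fold higher and 1 at least 2-fold lower; without Gnas, a mainly protein-coding gene that the list held by mistake, the median was also 0.03. With the length trend removed the list had a median of 0.30, with 25 above and 7 below 0. Xist, which the list does not hold, was at least 2-fold higher, at 84.2 FPKM in the mutant and 31.6 in the control. The sex of the embryos in each pool is not described here, and its part in the value of Xist was not tested. The cluster host Mir17hg stood at 17.6 FPKM in the mutant and 11.2 in the control, a ratio of 1.58 (1.44 to 1.74). Pantr1, listed as 2610017I09Rik, was lowest at 1.41 and 6.73, a ratio of 0.210 (0.125 to 0.340), and Gnas stood at 602 and 958. By GENCODE type, 190 long noncoding genes other than the members had a median of 0.02, with 1.58% at least 2-fold higher and 1.05% at least 2-fold lower, and 10444 protein-coding genes had -0.14, 0.230% and 0.986%. With the length trend removed these medians were 0.21 and -0.01.

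**Figure D5:**
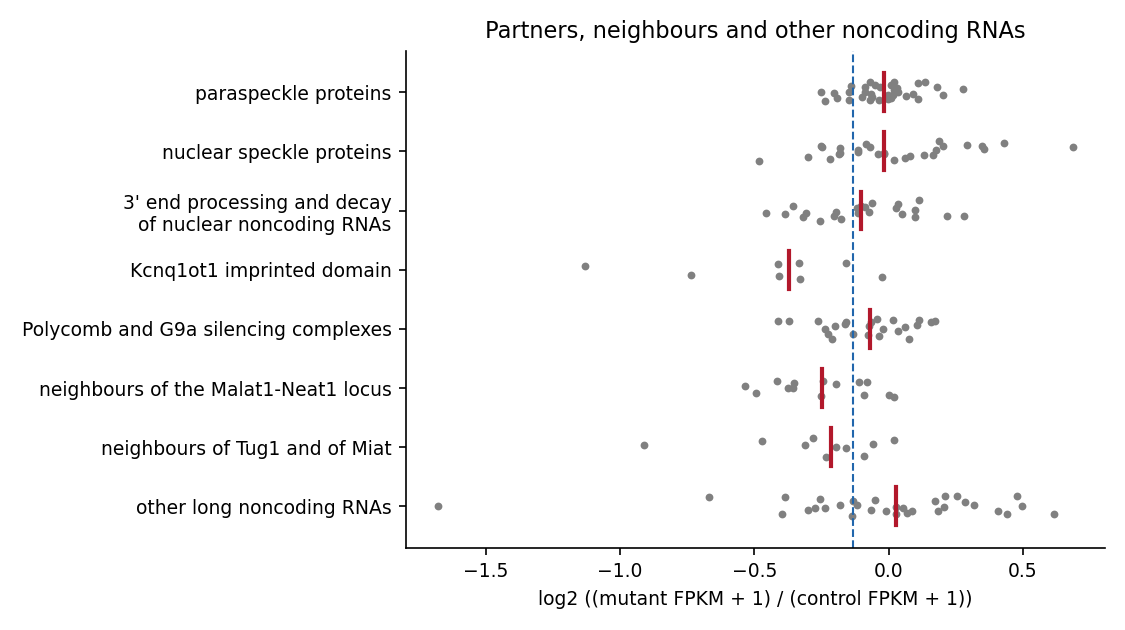
log2((mutant FPKM + 1) / (control FPKM + 1)) of each measured gene (grey points) in 8 lists, 1 library per group, with the list median (red) and the median of all genes (blue dashed, -0.13). The domain of Kcnq1ot1 has the lowest list median, -0.37, and no list holds a gene with a log2 ratio of 1 or more. With the length trend removed (not plotted), the domain and the neighbours of Malat1 and Neat1 both had a median of -0.10.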

How the data were processed

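The authors deposited 1 table per library with FPKM and coverage signal for 59120 transcripts, per the file headers. The naming of the tables gives Cufflinks; for its version, the aligner and the strandedness the sources hold no statement. A build of mm9 is named in the submitters' processing notes, but the coordinates of the members match GENCODE M21 on GRCm38, where starts are 1 base higher than deposited; they are printed 1-based. In 65 lines per table a spaced gene name displaced the columns, and these were left out. FPKM was summed by gene symbol (30723 genes). Main values used a pseudocount of 1 and a mean of at least 1 FPKM; log2 ratios without a pseudocount and a bar of 100 fragments were added after the values were seen. Fragments were approximated as coverage times length divided by 153 (mutant) or 156 (control) bases, the median of the lowest values (80 to 220 bases) of single-transcript genes over 1500 bases. The length trend is a running median of 501 genes. Python 3.11.15, pandas 2.3.3, SciPy 1.17.1 and matplotlib 3.10.9 were used, and ratios, intervals and trend were tested on simulated data.

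The members and lists were chosen with earlier results of these data known. Named genes were the members, the 3 largest log2 ratios and the most abundant gene of each list, the Kcnq1ot1 domain, the measured neighbours of Malat1 and Neat1 (1 is not reported here), and the 4 genes nearest to Malat1 and to Neat1. Elac2, Pop1, AK033381, Fat2, Macf1, Dst, Syne2 and Kif3a were named after their values were seen. Replicates, and so tests between genotypes, are lacking.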

Additional observations from a re-analysis of the deposited data

How the results depend on the processing

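Malat1, Kcnq1ot1 and Miat stayed higher in the mutant under every alternative run, and the sign of Tug1 and Neat1 followed the scaling. The log2 ratios were 2.43, 0.49, 0.50, -0.10 and -0.07 for Malat1, Kcnq1ot1, Miat, Tug1 and Neat1, with 94 genes at least 2-fold higher and 167 at least 2-fold lower. With a pseudocount of 0.1, Malat1 had 2.53, Kcnq1ot1 1.49 and Miat 1.07, with 179 genes higher and 312 lower. With a pseudocount of 5 these were 2.11, 0.13 and 0.15, with 36 higher and 56 lower. Without a pseudocount, chosen after seeing the data, they were 2.54, 1.99 and 1.23, and among genes with 100 fragments, also chosen then, 164 were higher and 309 lower. Centred on the median gene, Malat1 had 2.57, Kcnq1ot1 0.62 and Tug1 0.031. Upper quartile scaling gave 2.57, 0.55 and 0.033, and deposited coverage in place of FPKM 2.60, 0.56 and 0.051. Scaled to the same FPKM sum, Malat1 had 3.02, Kcnq1ot1 0.75, Miat 0.83, Tug1 0.48 and Neat1 0.21, with 507 higher and 77 lower. Without transcripts under 200 bases this scaling gave Malat1 2.70, Kcnq1ot1 0.60 and Tug1 0.16, with 167 higher. With the length trend removed, Malat1 had 2.31, Kcnq1ot1 0.10 and Miat 0.25, with 106 genes lower. For Kcnq1ot1 the trend had to be extended beyond the lengths it was fitted on. This run started from log2 ratios with the pseudocount of 1, which shrinks those of Kcnq1ot1 and Miat, both under 1 FPKM on average. The trend of the measured genes was taken off in full, so 0.10 and 0.25 do not measure the part of length in their ratios. By plain FPKM ratio, Miat stood 2.06 times over the median of its length class. Tug1 had -0.18 with its most abundant transcript alone. A mean of at least 5 FPKM left 54 genes higher and 88 lower. The cause of these shifts was not tested, apart from the fewer genes or other pseudocount that a setting itself brings.

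No paired analysis was possible because each group has 1 library, and for the same reason no library could be left out. Counting intervals limit Neat1 and Miat most, with about 62 and 215 fragments in the mutant and 64 and 101 in the control.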
